A study of Mus musculus with 4 samples.

Results

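Chromatin accessibility at 10 protein quality control genes in mouse MSCs (mesenchymal stem cells) was examined by ATAC-seq, an assay that reads open DNA by the sites where the Tn5 transposase inserts. The genes were the heat shock genes Hspa8, Hsph1, Hspd1, Hsp90aa1, Hsp90ab1 and Dnajb1 and the unfolded protein response genes Hspa5, Atf4, Ddit3 and Xbp1. Every peak that overlapped the span from 5 kb upstream to 10 kb past the end of a gene in GENCODE M21 was taken, which gave 41 of the 128055 peaks in the table. They comprised 11 promoter peaks, within 1 kb of an annotated start site of a protein-coding transcript of the gene, with 5 gene body, 2 upstream and 23 downstream peaks. The 4 libraries came from wild-type C57BL/6N male mice of 3 to 5 months, with 2 libraries from cells in hypoxia (2% O2) and 2 from cells in normoxia (21% O2). According to the study's methods, cells of both groups first grew out in hypoxia and were then kept there or moved to normoxia, and MSCs that had grown from crushed bone were sorted as CD45-, TER-119-, Sca-1+ and CD140a+ cells. The labels call the cells bone-marrow MSCs. They are a cultured and sorted population, and the labels do not say which animals gave which library. Libraries carry the replicate numbers 1 and 2 in their labels and are treated by the study as independent experiments. The p-values of peaks rest on 2 libraries per group. The fit also draws the variance of each peak towards a trend over all peaks, so these p-values do not measure the spread between those libraries alone.

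Heat shock proteins are chaperones that keep other proteins folded, and their genes are induced by heat shock factor 1 (HSF1) when unfolded proteins build up in the cytosol. The unfolded protein response is the matching programme for the endoplasmic reticulum (ER), run by the sensors IRE1, PERK and ATF6, with XBP1, ATF4 and the ATF4 target CHOP (gene Ddit3) as its transcription factors and the chaperone BiP (gene Hspa5) as a main target. ATF4 is also the effector of the integrated stress response, which low oxygen and amino acid shortage can switch on. Promoters of constitutively used chaperones are open in most cell types, and HSF1 can act on chromatin that is already open.

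The elements through which HSF1 and the ER stress factors are known to act are shown for the members that carry them, so that the promoters of the 2 arms can be compared by their letters. Of the 10 genes, 7 were in the RefSeq promoter table (GRCm38.p6, the assembly of mm10), which gives 250 bases before and 50 bases from each start site. Hspa8, Hsp90aa1 and Hsp90ab1 were not matched. A heat shock element of 3 units (GAANNTTCNNGAA, or TTCNNGAANNTTC on the other strand) was found in Hsph1 and Hspd1, against 0.603% of 32851 promoters. The shorter form of 2 units (GAANNTTC or TTCNNGAA, the same on both strands and contained in the longer form) occurs in 15.1% of promoters. An ER stress response element (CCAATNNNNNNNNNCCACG, or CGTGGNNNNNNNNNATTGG on the other strand, which contains a CCAAT box) was found in Hspa5, against 0.119% of promoters. A match is a description of letters and not a mapped binding site. Each stretch is written 5′ to 3′ on the strand of its gene with the element in capitals, and all of them lay inside the promoter peak of that gene.
Hsph1, 2 units, chr5:149636351-149636380, minus strand: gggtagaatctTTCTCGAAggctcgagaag
Hsph1, 3 units, chr5:149636287-149636308, minus strand: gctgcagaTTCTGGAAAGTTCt
Hspd1, chr1:55088053-55088082, minus strand: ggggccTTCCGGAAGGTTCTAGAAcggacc
Hspa5, chr2:34772020-34772048, plus strand: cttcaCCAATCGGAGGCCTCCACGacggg
In Hsph1 the short element lay 33 to 26 bases before the RefSeq start site and the long element at positions 36 to 48, counting the first transcribed base as 0. In Hspd1, units ran on over 18 bases as overlapping 3-unit elements, 144 to 127 bases before the second RefSeq start site. Hspe1 starts on the opposite strand there, and the same bases lay 89 to 72 bases before its start. The Hspa5 element lay 65 to 47 bases before the start site. The bases farther upstream, before the first annotated exon, are shown for Hsph1 and Hspa5 with CCAAT boxes (CCAAT or ATTGG, in 37.4% of promoters) in capitals, since the ER element contains such a box.
Hsph1 upstream, chr5:149636377-149636586, minus strand: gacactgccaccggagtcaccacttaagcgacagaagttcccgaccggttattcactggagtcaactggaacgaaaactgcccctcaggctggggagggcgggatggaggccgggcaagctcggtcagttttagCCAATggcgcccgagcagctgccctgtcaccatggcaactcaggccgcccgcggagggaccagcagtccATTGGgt
Hspa5 upstream, chr2:34771840-34771969, plus strand: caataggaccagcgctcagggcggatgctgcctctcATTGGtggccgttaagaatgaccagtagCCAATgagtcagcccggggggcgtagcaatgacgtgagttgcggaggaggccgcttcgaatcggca
No heat shock, ER stress or ATF4 element (TGATGNAAT or ATTNCATCA, in 0.965% of promoters) was found in the windows of Dnajb1, Atf4, Ddit3 or Xbp1. The unfolded protein response element TGACGTGG (or CCACGTCA, in 0.676% of promoters) and the cAMP response element TGACGTCA (in 1.79%) were found in no window of the 7 matched members. These letters are not in these windows.

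All 10 genes had an open promoter in both oxygen conditions, and the peak caller assigned all 11 promoter peaks to both groups. Since the deposited values grow with peak width, levels were compared between genes only per kb of peak. An order per kb also depends on how wide the peaks were drawn. The promoter peaks of Dnajb1, Hspa5, Atf4 and Ddit3 span 11600 to 12500 bp and cover the whole gene. Those of Hsph1 and Hspa8 span 3400 and 4600 bp. Hsph1 and Hspa8 had the highest levels per kb in hypoxia, with 100.5 ± 7.04 and 99.9 ± 8.47 (mean ± SD, n = 2), and the ranges of their libraries overlapped. Hspd1 followed with 68.4 ± 1.41 per kb, and its libraries lay apart from both neighbours in that order. The internal start of Hsp90aa1 had 56.9 ± 6.98 and Dnajb1 55.8 ± 1.67 per kb, which overlapped. Hspa5, the upstream start of Hsp90aa1, Xbp1 and Hsp90ab1 lay between 45.4 and 39.8 per kb, each overlapping the next. Ddit3 (36.0 ± 0.139) and Atf4 (33.5 ± 1.71) had the lowest levels per kb, over peaks of 12500 and 11600 bp. In normoxia Hspa8 and Hsph1 exchanged the first places, 4 of the 11 peaks kept their rank and the largest shift was 3 places, by the upstream start of Hsp90aa1. By the deposited value over the whole peak, 8 of the 11 had a mean of at least 121.8, a level reached by 4415 of the 17661 promoter peaks. By that value Dnajb1 stood highest, with a mean of 501.2 over the 4 libraries.

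**Figure D1:**
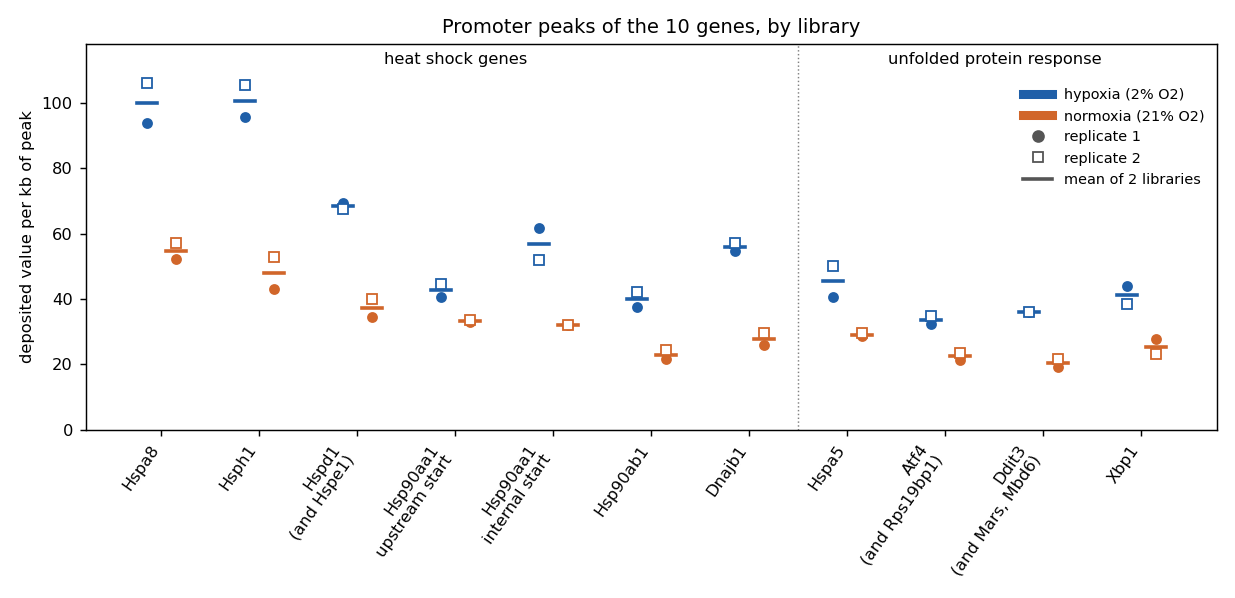
Deposited value per kb of peak (vertical axis) in each of the 4 libraries for the 11 promoter peaks, with heat shock genes to the left of the dotted line. Filled circles are replicate 1, open squares replicate 2 and bars the mean of 2 libraries. Normoxia lies below hypoxia without overlap in all 11 peaks at this scale, and Hsph1 and Hspa8 stand highest in both conditions.

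The comparison of normoxia with hypoxia asks how a change of oxygen alters the openness of these genes. With library totals that rest on an assumed scaling, the share that fell in peaks was 57.0% and 62.3% in hypoxia but 32.5% and 37.6% in normoxia. The deposited values of most peaks were also lower in normoxia. Their part in the results below was tested only through the scalings. In bulk libraries fewer cells with an open site and a less open site in each cell cannot be told apart. RLE (relative log expression) size factors, 1.13 and 1.23 in hypoxia against 0.81 and 0.89 in normoxia, set the typical peak equal, and unless said otherwise the fold changes below follow that scaling, compare normoxia with hypoxia (negative where normoxia is lower) and use log2(value + 1), which understates changes of weak peaks. A peak was called lower or higher at a false discovery rate (FDR) under 0.01 in limma's test over all 128055 peaks. The median fold change of all peaks was -0.44 in the values as deposited and -0.004 after RLE scaling. It was 0.26 when libraries were scaled to an equal total over peaks. The median of all promoter peaks was -0.73 as deposited, -0.27 after RLE scaling and -0.07 under cyclic loess, which removes a trend with peak strength. A fall at a promoter has to be read against these values.

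Of the 41 peaks, 8 were called lower in normoxia and 0 higher, against 4.57% called lower and 1.77% called higher among all peaks. At an unadjusted p under 0.05, 20 were lower and 1 was higher, beside 16.8% and 12.5% of all peaks. In edgeR on the recovered reads 10 were lower and 0 higher, beside 5.7% and 2.54%. In the values as deposited 26 of the 41 were called lower, against 24.0% of all peaks, and in 36 of the 41 the normoxia libraries were both lower than either hypoxia library, against 59.5%. With equal totals 2 peaks were called lower and 1 higher, where 0.842% of all peaks were lower and 6.87% higher. Quantile normalization also gave 2 and 1, against 0.72% and 0.905%. Cyclic loess gave 3 and 3, against 1.31% and 1.42%. Without hypoxia replicate 1, and likewise without hypoxia replicate 2, limma called 0 peaks in the whole table and hence 0 of the 41.

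Among promoter peaks, 3 of 11 were called lower in normoxia, those of Hspa8, Hsph1 and Dnajb1, against 16.7% of all promoter peaks and 42.9% of the 4415 strongest, with a mean of at least 121.8. With 1 library left out, their log2 fold changes ran from -0.43 to -0.37 for Hspa8, -0.67 to -0.51 for Hsph1 and -0.57 to -0.50 for Dnajb1. None of the 11 was called higher, against 0.442%. As deposited, 10 of the 11 were called lower, against 60.6% of all promoter peaks, and all 11 had both normoxia libraries below both hypoxia libraries, against 86.1%. The median fold change of the 11 was -0.34 after RLE scaling, -0.81 as deposited and 0.03 under cyclic loess, where the direction turned. Those 4415 strongest promoter peaks, to which most members belong, had medians of -0.39, -0.86 and -0.03. The members' medians were thus close to those of other strong promoters under all 3 scalings.

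Hspa8 encodes the constitutive cytosolic HSP70 chaperone. Its promoter peak (chr9:40798401-40803000, mm10) spanned the annotated 5′ end. The value was 432.1 and 487.2 in hypoxia against 239.5 and 263.0 in normoxia. Every normoxia value was lower, and the groups did not overlap. After RLE scaling the log2 fold change was -0.39 ± 0.09 (SE; limma, FDR 0.0048), and under cyclic loess it was 0.06. The 10000-bp peak that covers the rest of the gene and 3 small nucleolar RNA genes in its introns held 319.2 and 318.6 in hypoxia against 180.3 and 210.9 in normoxia. It was not called (log2 fold change -0.23 ± 0.10).

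Hsph1 encodes a large HSP70 relative that exchanges the nucleotide of HSP70, and its promoter carries the heat shock elements shown above. The promoter peak (chr5:149634301-149637700) had values of 324.8 and 358.7 in hypoxia against 146.2 and 179.2 in normoxia. The groups did not overlap, and normoxia was the lower. After scaling, the log2 fold change was -0.60 ± 0.10 (FDR 0.0003), the most negative of the 11 promoter peaks. It stayed negative under the other scalings too, at -0.31 with equal totals, -0.23 with quantile normalization and -0.20 under cyclic loess, though it was called in none of these. None of the other 4 Hsph1 peaks was called, in limma or in edgeR. The strongest of them, past the end of the gene and within Wdr95 (chr5:149603101-149608100), had values of 82.8 and 98.9 in hypoxia against 54.7 and 64.4 in normoxia, a log2 fold change of -0.13 ± 0.14. An intragenic peak (chr5:149622501-149624600) held 24.8 and 22.1 in hypoxia against 23.2 and 21.7 in normoxia, so that its groups overlapped even as deposited.

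Dnajb1 encodes the J-domain partner that feeds clients to HSP70. Its promoter peak (chr8:83606801-83618800) spans 12000 bp and covers the whole gene as well as part of the neighbour Tecr. It had the highest summed value of all 41 peaks, with 655.7 and 684.0 in hypoxia against 310.3 and 354.7 in normoxia. The groups lay far apart as deposited. The log2 fold change was -0.53 ± 0.09 (FDR 0.0001), and it shrank to -0.03 under cyclic loess. A further peak upstream in Tecr (chr8:83600701-83603300), with 85.3 and 95.2 against 64.5 and 71.7, gave 0.07 ± 0.14. None of the 3 promoter calls was made with equal totals, with quantile normalization, under cyclic loess or without either hypoxia library.

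Hspd1 encodes the mitochondrial chaperonin, and its promoter peak (chr1:55085901-55089600) is shared with Hspe1, which encodes the co-chaperonin and runs the other way. The value was 256.9 and 249.5 in hypoxia against 127.8 and 147.5 in normoxia. Both normoxia libraries were lower, and the log2 fold change of -0.40 ± 0.11 missed the threshold in limma (FDR 0.0127), while edgeR called it lower (FDR 0.0078). The peak cannot be divided between the pair of genes. The stronger of its downstream peaks (chr1:55074201-55077200) had 24.1 and 26.2 in hypoxia against 16.9 and 20.4 in normoxia and gave 0.04 ± 0.21 after scaling.

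Hsp90aa1 and Hsp90ab1 encode the stress-inducible and the constitutive cytosolic HSP90. Hsp90ab1 had a promoter peak (chr17:45572101-45574900) with 105.5 and 117.6 in hypoxia against 60.3 and 68.1 in normoxia, not called at -0.31 ± 0.13 (FDR 0.104). The peak at its end belongs to the promoter of Slc35b2 and gave -0.10 ± 0.13. Hsp90aa1 has annotated start sites at its 5′ end and inside its span, each with a peak of its own. The peak at the upstream start (chr12:110702301-110707500) held 211.6 and 232.2 in hypoxia against 170.9 and 174.9 in normoxia. The peak at the internal start (chr12:110695301-110697400) held 129.9 and 109.1 in hypoxia against 67.1 and 67.4 in normoxia. Both were lower in normoxia as deposited, with log2 fold changes of -0.36 and -0.81, and after RLE scaling the upstream start was at 0.12 ± 0.11 and the internal start at -0.34 ± 0.14, neither of them called. The value of the internal start rests on the hypoxia libraries, with -0.17 without replicate 1 and -0.53 without replicate 2. The upstream start was called higher with equal totals, quantile normalization and cyclic loess, where it gave 0.41, 0.47 and 0.49. A ratio within a library needs no scaling between libraries. It cancels a factor common to all peaks of a library but not a trend with peak strength, whose part was not tested. The upstream peak was 1.63 and 2.13 times the internal peak in hypoxia and 2.55 and 2.59 times in normoxia. The difference of 0.47 on the log2 scale did not overlap between groups, and the exact permutation test gave p = 0.333 (two-sided, n = 2 per group, unchanged by adjustment over 2 ratios), the smallest that 2 libraries against 2 allow.

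The called peaks in the Hsp90aa1 window lay past its end. A cluster of 7 adjoining peaks ran from the 3′ end of the gene to the promoter of the next gene, 1700001K19Rik (chr12:110681001-110692200), and 4 of them, between 1305 and 5705 bp past Hsp90aa1, were called lower in normoxia. Their nearest start site is that of 1700001K19Rik, 1782 to 6482 bp away, and which gene they belong to was not tested. The widest of these (chr12:110684901-110687100), which the caller gave to both groups, had 43.2 and 46.6 in hypoxia against 17.2 and 20.4 in normoxia (log2 fold change -0.75 ± 0.19, FDR 0.0066). The other 3 were segments of 200 to 500 bp that the caller had assigned to hypoxia only, so lower values in normoxia are built into their choice. Their values were 12.0 and 9.52 against 2.25 and 1.67 at chr12:110684401-110684900. At chr12:110687101-110687600 they were 14.2 and 17.0 against 1.87 and 5.67. The weakest, chr12:110689101-110689300, rested on 15 and 25 reads in hypoxia and 3 and 0 in normoxia. No annotated gene lies over any of these 4 peaks. None of them was called without either hypoxia library. The segments at 110684401 and 110689101 were also lost without normoxia replicate 2, and those at 110684901 and 110687101 without normoxia replicate 1, which moved the latter from -1.51 to -0.93. Of the other scalings, equal totals ended the calls at 110684401, 110684901 and 110687101, quantile normalization those at 110684401, 110684901 and 110689101, and cyclic loess those at 110684901 and 110689101. Merged into a single region, the 7 peaks, the 1700001K19Rik promoter peak included, held 232.1 and 294.8 in hypoxia against 123.7 and 121.8 in normoxia and were called lower (-0.63 ± 0.11, FDR 0.0001). A strong peak within the cluster (chr12:110687601-110689100) was not called on its own, with 80.3 and 107.1 against 46.5 and 49.7 and a log2 fold change of -0.46 ± 0.15.

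None of the 4 unfolded protein response promoters was called after RLE scaling in limma or edgeR, and 1, that of Ddit3, was lower at an unadjusted p under 0.05, against 44.1% of all promoter peaks. Hspa5 encodes BiP, the HSP70 of the ER, and its promoter peak (chr2:34769801-34781900) covers the whole gene and part of Rabepk. It had 491.2 and 606.9 in hypoxia against 345.6 and 356.1 in normoxia, the widest spread between hypoxia libraries of these 4. The log2 fold change was -0.16 ± 0.09, with -0.26 without hypoxia replicate 1 and -0.070 without hypoxia replicate 2. Atf4, the transcription factor of the integrated stress response, shares its peak (chr15:80253501-80265100) with the promoter of Rps19bp1. Its values were 375.1 and 403.2 in hypoxia against 247.0 and 273.0 in normoxia, a log2 fold change of -0.10 ± 0.09. Under cyclic loess these peaks were called higher in normoxia, with 0.33 for Hspa5 and 0.34 for Atf4, so their direction depends on the scaling.

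Ddit3, the gene of CHOP, lies in a promoter peak (chr10:127286601-127299100) that also holds the promoters of Mars and Mbd6. Its values were 448.7 and 451.1 in hypoxia against 239.5 and 270.6 in normoxia. The log2 fold change of -0.34 ± 0.09 missed the threshold (FDR 0.0134), and the sign turned under quantile normalization and cyclic loess. Xbp1, whose messenger RNA is spliced by IRE1, had a narrow promoter peak (chr11:5520001-5523000) with 131.6 and 115.6 in hypoxia against 83.6 and 69.1 in normoxia, a log2 fold change of -0.22 ± 0.14. Leaving out normoxia replicate 2 moved it to -0.014 and hypoxia replicate 1 to -0.077, against -0.41 and -0.37 when the other library of either group was left out. Its downstream peak in Ccdc117 (chr11:5526401-5530900) had 65.1 and 53.4 against 39.4 and 35.7 and gave -0.17 ± 0.17. The medians of the 2 arms were -0.39 over 7 heat shock promoter peaks and -0.19 over 4 unfolded protein response promoter peaks. The median widths of these peaks were 3700 and 11850 bp, and Hsp90aa1 enters with both of its starts. The comparison is a description, and no test of the difference between arms was run.

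**Figure D2:**
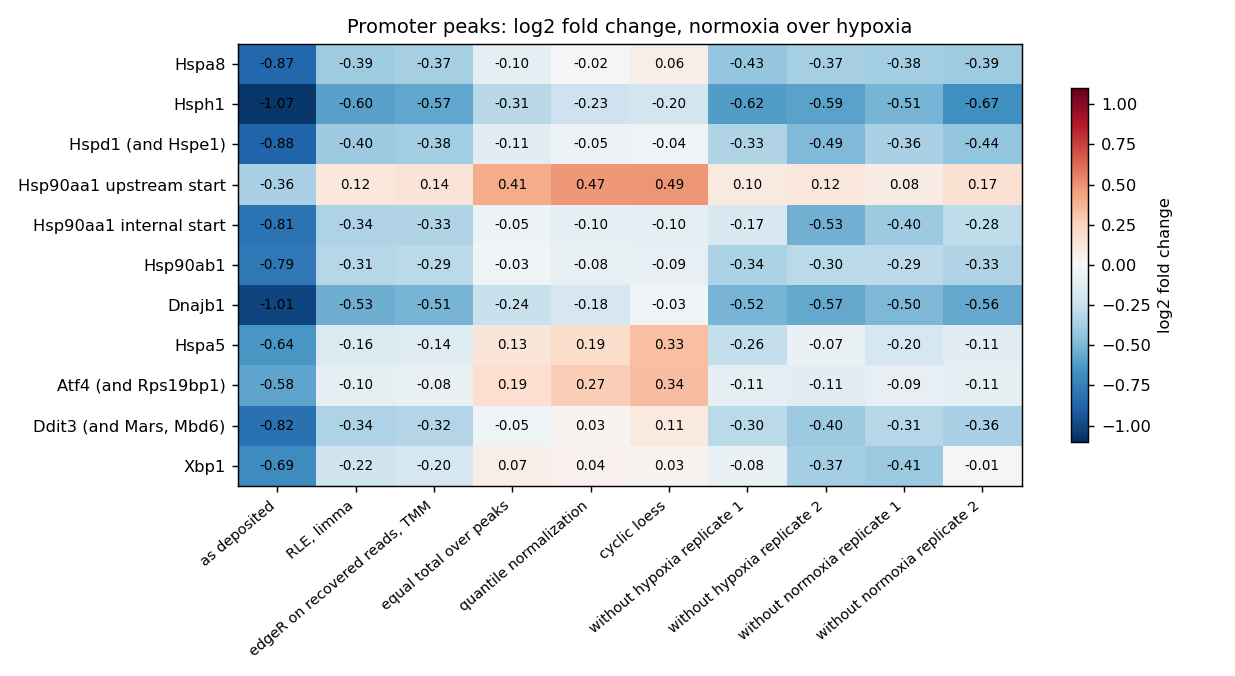
Log2 fold change, normoxia over hypoxia, of the 11 promoter peaks (vertical axis, genes) under 10 ways of scaling or choosing libraries (horizontal axis), with blue for lower in normoxia and red for higher. All 11 are negative as deposited. Hsph1, Hspd1, Dnajb1, Hsp90ab1 and the Hsp90aa1 internal start are negative in every column. The Hsp90aa1 upstream start, Hspa5, Atf4 and Xbp1 are positive with equal totals, quantile normalization and cyclic loess.

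Next to the Hspa5 promoter lay the peak with the lowest p-value of the 41. A 2000-bp segment (chr2:34781901-34783900), in an intron of Rabepk and 4354 bp past the end of Hspa5, adjoins the promoter peak with no gap. Its values were 75.4 and 74.1 in hypoxia against 14.2 and 21.7 in normoxia, from 213 and 218 reads against 38 and 65. The groups lay far apart, and the log2 fold change was -1.56 ± 0.18 (limma, FDR 1.1e-06). The segment was called lower under all 4 other scalings, at both other pseudocounts, and in edgeR, and it was not called without either hypoxia library or without trend and robust estimation. The caller had assigned the segment to hypoxia only from the same libraries, so lower values in normoxia are built into its choice. The calls above and the ratio below are not independent of that choice. Per kb it stood at 0.93 and 0.74 times the Hspa5 promoter peak in hypoxia and at 0.25 and 0.37 times in normoxia, a difference of -1.45 in log2 of that ratio (exact permutation p = 0.333, two-sided, the smallest possible). The next segment (chr2:34783901-34785400) had 23.0 and 18.4 against 12.7 and 10.3 and was not called.

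Of the 41 peaks, 9 had been assigned to hypoxia only by the caller, in 5 of the 10 genes, against 6.84% of all peaks, and 0 to normoxia only. All 9 had negative fold changes, with a median of -1.36, beside -1.05 over all 8754 such peaks, and 4 of them were called lower, against 8.24% of those peaks. The medians here follow from how such peaks are defined. They were short, from 200 to 2000 bp, and all 9 adjoined another peak. In Ddit3 they were a pair of segments in Mars at the edge of the promoter peak (chr10:127299101-127299500 and chr10:127299601-127300400). The wider of these rested on 25 and 42 reads in hypoxia and 4 and 13 in normoxia, with an FDR of 0.0136 in limma and 0.0088 in edgeR. The 21 peaks outside promoters that the caller gave to both groups had a median fold change of -0.10, beside 0.05 over all peaks outside promoters. Of them 1 was called lower, the Hsp90aa1 peak described above. Over all 30 peaks outside promoters 5 were called lower, against 2.64% of such peaks. The peak with the most positive fold change, 800 bp wide and past the end of Atf4 (chr15:80266101-80266900), was weak, with 6.37 and 9.86 in hypoxia against 8.25 and 11.3 in normoxia. Its groups overlapped, and the log2 fold change of 0.69 ± 0.30 was not called.

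**Figure D3:**
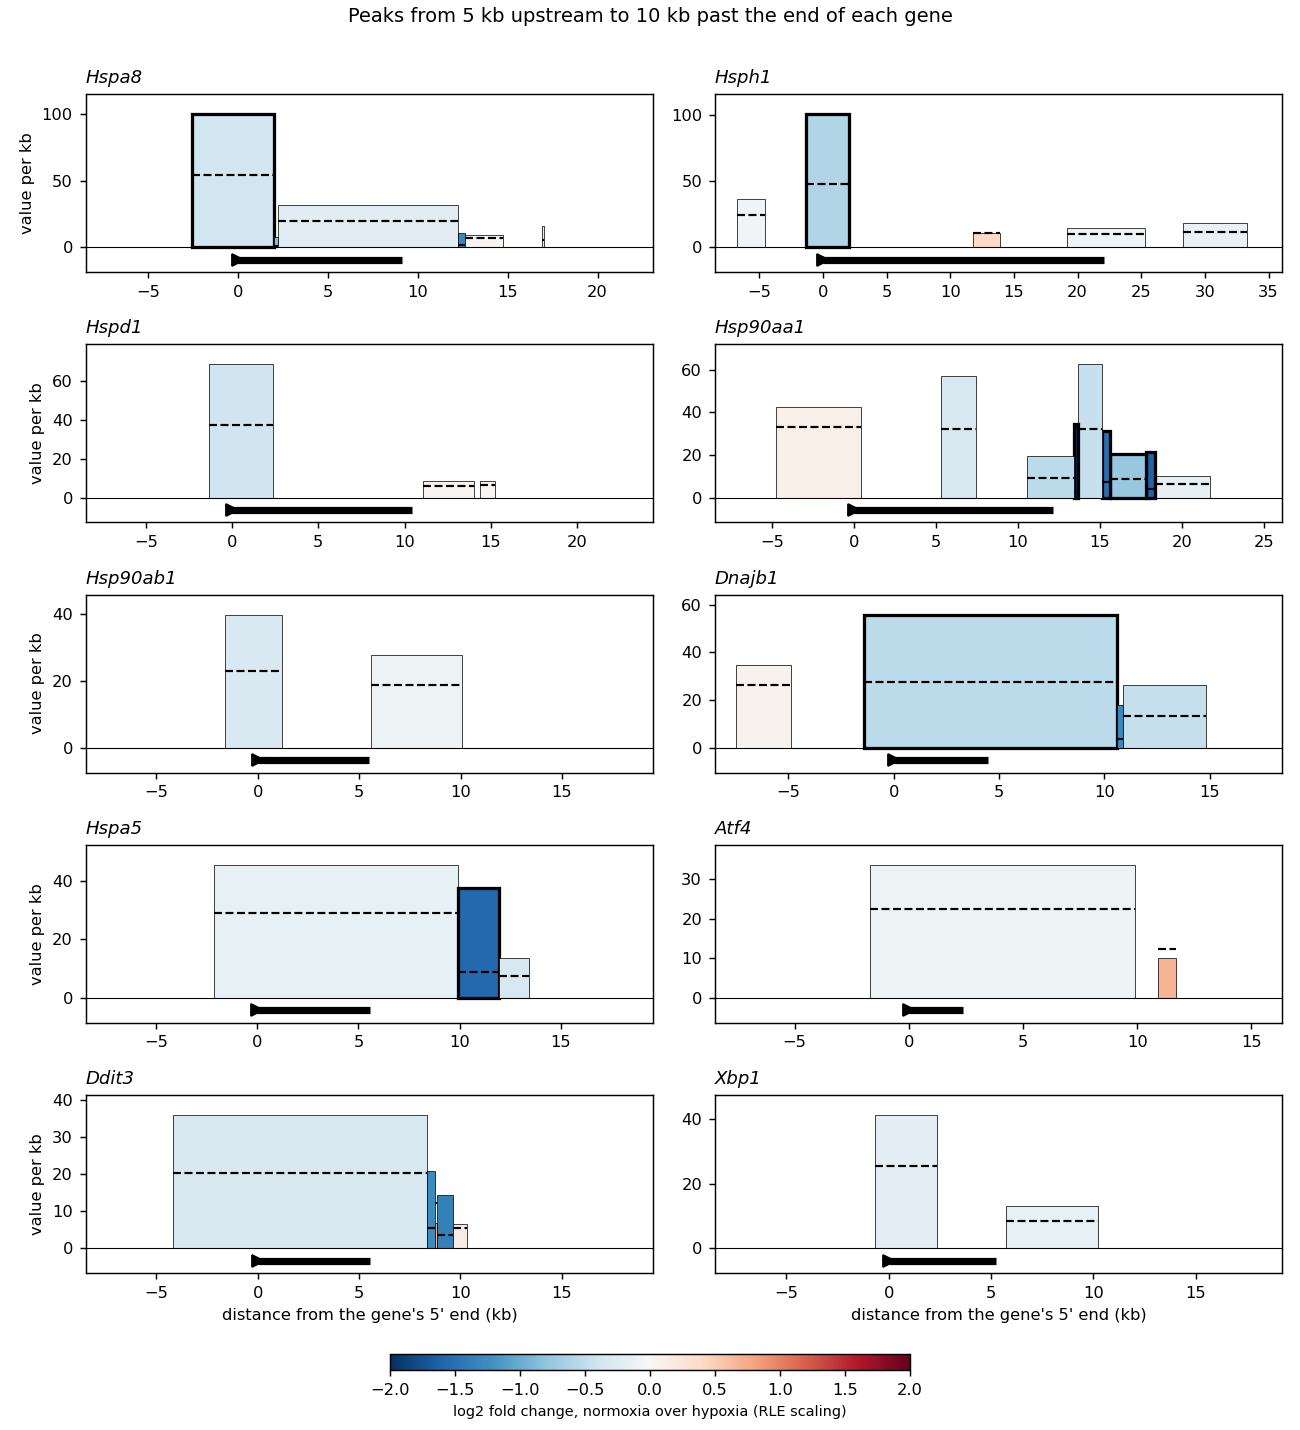
Peaks at each gene by distance from its 5′ end in kb (horizontal axis) and hypoxia value per kb of peak (height, mean of 2 libraries), with dashed lines for the normoxia mean, colour for the log2 fold change after RLE scaling and a thick outline for a call at an FDR under 0.01. The black arrow is the gene. Outlined boxes are the promoters of Hspa8, Hsph1 and Dnajb1, the segment past Hspa5 and 4 segments past Hsp90aa1.

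**Figure D4:**
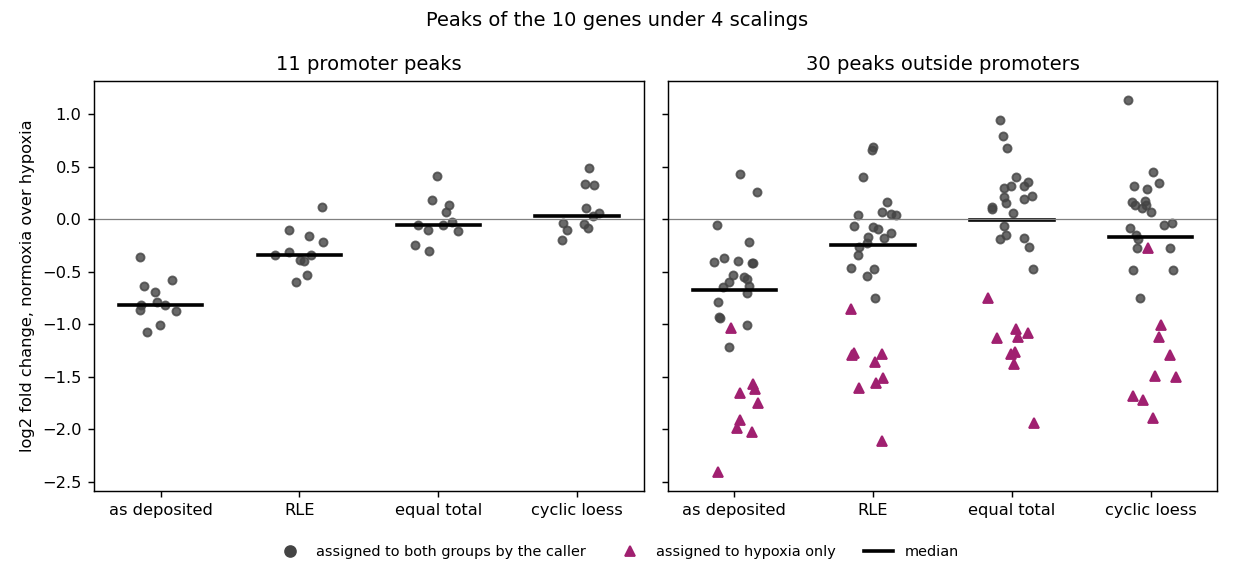
Log2 fold change, normoxia over hypoxia (vertical axis), of the 11 promoter peaks and the 30 other peaks under 4 scalings. Triangles are the 9 peaks given to hypoxia only by the caller and black lines the medians. The promoter median moves from -0.81 as deposited to 0.03 under cyclic loess. All 9 triangles lie below 0, and lower values in normoxia are built into their choice.

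Because the caller cut continuous open regions into segments, adjoining peaks were also merged over the whole table, a choice made after the data were seen. The 41 peaks became 23 regions, of which 6 were called lower and 0 higher, against 5.74% called lower among all 114611 merged regions. Of the 11 promoter regions 5 were called lower, those of Hspa8, Hsph1, Hspd1, Dnajb1 and Ddit3, against 22.0% of all 15958 regions that hold a promoter peak. The Hspd1 region, a single peak, crossed the threshold at -0.42 ± 0.11 (FDR 0.0062). The Ddit3 region gave -0.38 ± 0.09 (FDR 0.0033), and the Hspa5 region, which includes the hypoxia-only segment, gave -0.30 ± 0.09 (FDR 0.0155). Summed over all its peaks as deposited, each of the 10 genes was lower in both normoxia libraries, at 52.4% of hypoxia for Dnajb1 to 67.9% for Atf4. After RLE scaling 9 of the 10 sums still did not overlap and Xbp1 did. Single peaks were lower as deposited in both normoxia libraries in 59.5% of all peaks and 86.1% of all promoter peaks. No such share was computed for the sums of other genes or after RLE scaling. The exact permutation test gives p = 0.333 for each sum as deposited and cannot go lower with these numbers.

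Other genes of the same pathways were examined by role, in a list of 86 symbols for 85 genes that excludes the members (Selenos is also listed under its older symbol Vimp). All 85 genes had a promoter peak, 98 peaks in all after leaving out the peak shared with Hspd1. Of the 98 peaks 28 were called lower (28.6%) and 0 higher, beside 16.7% and 0.442% of all promoter peaks and 42.9% called lower of the 4415 strongest. At the FDR of 0.05 49 were lower and 1 was higher, against 30.1% and 1.6% of all promoter peaks. The higher peak, named after its value was seen, was a weak one of Hsf1 (chr15:76496201-76498800), with 17.7 and 16.3 in hypoxia against 21.4 and 19.7 in normoxia (0.71 ± 0.23, FDR 0.030), and the stronger Hsf1 peak was at 0.02 ± 0.13. The median fold change was -0.37, beside -0.27 over all promoter peaks and -0.39 over the strongest. As deposited 79 of the 98 were called lower, against 60.6% of all promoter peaks. With equal totals, quantile normalization and cyclic loess the number called lower was 4, 2 and 3, against 2.3%, 1.18% and 2.05% of all promoter peaks, and without either hypoxia library it was 0.

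In the cytosolic heat shock response 13 of 34 peaks were called lower. Hspb8, a small heat shock protein that works with Bag3, had 511.3 and 507.6 in hypoxia against 232.0 and 257.3 in normoxia (log2 fold change -0.58 ± 0.09). Fkbp4, an HSP90 co-chaperone, was at -0.71 ± 0.12. The stress-inducible HSP70 genes Hspa1a and Hspa1b had weaker promoter peaks that were not called, at -0.50 ± 0.16 (FDR 0.029) and -0.37 ± 0.14 (FDR 0.071), and as near-identical copies they may share reads. Among mitochondrial genes 1 of 8 peaks was called, that of the protease Lonp1 (-0.63 ± 0.13).

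Of 15 peaks of ER chaperones and folding enzymes 5 were called lower. The lowest p-value was that of Dnajb9, the BiP partner ERdj4, with 392.1 and 385.5 in hypoxia against 145.0 and 181.5 in normoxia (log2 fold change -0.78 ± 0.10). Hsp90b1, the ER form of HSP90, was at -0.54 ± 0.10, and Hspa13, an HSP70 relative of the secretory pathway, was at -0.51 ± 0.10. The promoter peak of Hspa5 itself was at -0.16. That peak spans 12100 bp and covers the whole gene, against 2200, 4200 and 2400 bp for Dnajb9, Hsp90b1 and Hspa13. The difference was not tested. In ER-associated degradation 3 of 11 peaks were called, those of Edem1 (-0.55 ± 0.10), Derl2 (-0.54 ± 0.10) and Sel1l (-0.56 ± 0.12), which recognise and pass on misfolded proteins. Of 10 peaks of sensors and eIF2alpha kinases 1 was called, that of Eif2ak3, the gene of PERK (-0.53 ± 0.10).

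Of 20 peaks of ATF4 and CHOP targets 5 were called lower. The serine synthesis enzymes were among them, with Psat1 at 397.7 and 422.6 in hypoxia against 161.2 and 179.9 in normoxia (log2 fold change -0.79 ± 0.10, FDR 4.2e-06) and Phgdh at -0.67 ± 0.13. Stc2, a secreted stanniocalcin, was at -0.78 ± 0.14. Under cyclic loess 3 peaks of the whole list were called lower, those of Psat1, Stc2 and Dnajb9. Atf4 itself was not called lower after RLE scaling, as given above, and the values of its targets and its own promoter are set side by side without a test of the difference.

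**Figure D5:**
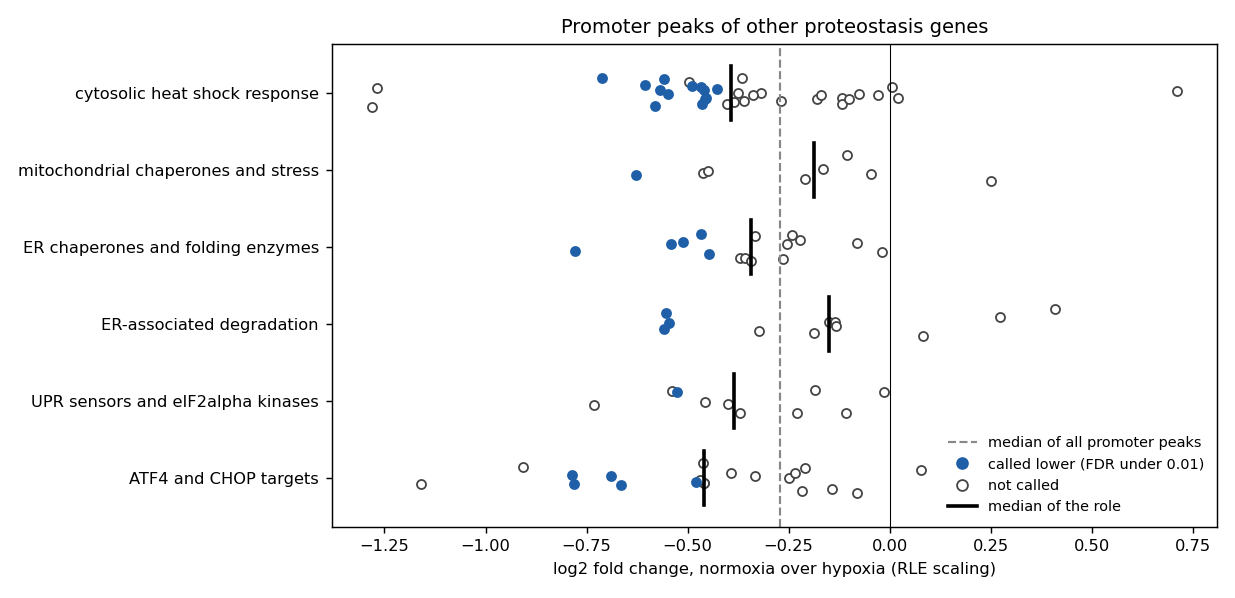
Log2 fold change, normoxia over hypoxia after RLE scaling (horizontal axis), of 98 promoter peaks of other protein quality control genes by role (vertical axis). Filled points were called lower at an FDR under 0.01, black bars are the medians of each role, and the dashed line is the median of all promoter peaks at -0.27 (-0.39 over the 4415 strongest). The medians run from -0.46 for ATF4 and CHOP targets to -0.15 for ER-associated degradation.

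The labelled cell type was checked by promoter peaks of marker genes. All 8 MSC markers (Pdgfra, Ly6a, Prrx1, Eng, Nt5e, Thy1, Cxcl12 and Col1a1) had a promoter peak, with summed values of 1689 and 1831 in hypoxia against 976 and 1033 in normoxia. Eng did not follow the sum, with 28.3 and 17.3 against 23.2 and 31.4. Of the blood markers, Ptprc, Cd3e and Itgam had no promoter peak in the table, and Spi1 had a weak peak with 14.9 and 10.2 in hypoxia against 7.87 and 13.0 in normoxia, where the groups overlapped. Of 3 endothelial markers 2 had a peak (Pecam1 and Tek), summing to 67.6 and 69.4 in hypoxia and to at most 51.1 in normoxia, and Cdh5 had none. Pecam1 overlapped, with 14.5 and 20.1 against 13.1 and 18.4. The part of other cells in the results was not tested.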

How the data were processed

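ATAC-seq libraries of mouse MSCs were analysed from the table of peak values deposited by the authors. By their methods, reads were mapped to mm10 using bowtie2, Picard removed duplicates, and chromstaR in differential mode called the peaks of both groups together and supplied the table. The deposited values are a signal that the authors name RPKM, although peak width does not enter it. All values (100%, tolerance 0.001 reads) were multiples of the worth of 1 read, which gave the reads of each peak. The totals of the libraries were 28259470 and 29413803 for hypoxia, 26680936 and 29965523 for normoxia. These totals, and the shares in peaks, assume that the values were scaled to the same fixed total in every library. A read may be counted in more than 1 bin, so counting error would be a lower limit and no interval was computed.

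Peaks were fitted in R 4.3.3 by limma 3.58.1, using lmFit and eBayes with its trend and robust options, on log2(value + 1) scaled by RLE size factors. Tests were two-sided, no filter on low values was applied, and p-values were adjusted by the Benjamini-Hochberg method across the 128055 peaks. limma took the place of the study's edgeR fit because the values are scaled. edgeR 4.0.16 (quasi-likelihood test) on the recovered reads was an alternative. The fits were tested on simulated data. The members, gene lists and tests were chosen with earlier results of these data known, and the calls are not independent of them. Named were all 10 genes with their promoter peaks, other peaks that were called or strongest in a window, the promoters of Hspe1, Hsp90b1, Hspa1a and Hspa1b, and of other listed genes at most 3 called peaks per role by p-value. Further peaks (the Hsph1 intragenic, Hspa5 and Ddit3 segment and Atf4 downstream peaks, with those of Hsf1) were named after their values were seen. Results of a few listed genes are not reported here. Peaks were classed as promoter, gene body, upstream or downstream in that order. Alternatives were other scalings, pseudocounts of 0.1 and 5, a mean value of at least 5, an FDR under 0.05, eBayes without trend and robust, a replicate block, promoter limits of 500 and 2000 bp, each library left out and merged peaks. The exact permutation test was used for sums and ratios.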

Additional observations from a re-analysis of the deposited data

How the results depend on the processing

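The numbers called lower in normoxia moved most with the scaling. The 8 of 41 peaks became 26 as deposited, 2 with equal totals, 2 with quantile normalization and 3 with cyclic loess, and 14 at an FDR under 0.05. They became 0 when eBayes was run without trend and robust estimation, a fit that called 0 peaks in the whole table. At an FDR under 0.05, 30.1% of all promoter peaks were lower, and the share of all peaks was not computed. With a mean value of at least 5, 7055 peaks of the whole table were called lower, beside 5856 in the main fit. The share of promoter peaks was not computed for that setting. Calls higher in normoxia rose from 0 to 1 with equal totals, 1 with quantile normalization and 3 with cyclic loess. The 3 promoter calls became 10 as deposited, 5 with a mean value of at least 5, 5 at an FDR under 0.05, 5 with adjoining peaks merged (an alternative chosen after seeing the data), and 0 with equal totals, quantile normalization, cyclic loess or eBayes without trend and robust estimation. For the 98 promoter peaks of other pathway genes, the 28 called lower became 79, 4, 2 and 3 under these 4 scalings, 49 at an FDR under 0.05 and 0 without trend and robust estimation, and 1 was called higher with equal totals, with cyclic loess and at an FDR under 0.05. Leaving out each library in turn gave 0 to 10 of the 41 peaks, 0 to 5 promoter peaks and 0 to 41 pathway peaks called lower, with 0 in each case without either hypoxia library. The median of the 11 promoter peaks, -0.34, became -0.81 as deposited, -0.051 with equal totals, -0.018 with quantile normalization and 0.033 with cyclic loess, and ran from -0.37 to -0.30 with 1 library left out. The median outside promoters, -0.25, became -0.67 as deposited and -0.0026 with equal totals. The cause was not tested.

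Single peaks changed sign as follows. With equal totals, quantile normalization and cyclic loess the peak over the body of Hspa8 gave 0.060, 0.14 and 0.17, the peak past Hsph1 0.16, 0.071 and 0.073, the peak past Hsp90ab1 0.19, 0.18 and 0.16, the promoter of Hspa5 0.13, 0.19 and 0.33, that of Atf4 0.19, 0.27 and 0.34, and that of Xbp1 0.070, 0.044 and 0.033. The Hspa8 promoter gave 0.061 with cyclic loess, and the Ddit3 promoter 0.026 with quantile normalization and 0.11 with cyclic loess. The peak past Xbp1 gave 0.11 with equal totals, and ran from -0.37 to 0.017 with 1 library left out. Left out in the same way, the peak past Hsp90ab1 ran from -0.24 to 0.037 and the peak past Hspd1 from -0.025 to 0.11. The peak past Hspd1 fell below 0, with -0.42 as deposited, -0.040 with quantile normalization and -0.032 with cyclic loess. As deposited the upstream start of Hsp90aa1 gave -0.36 and the peak upstream of Dnajb1 -0.40.

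The study states that the sorted population was divided between the oxygen conditions, so libraries may be paired, and the main fit held no pairing. Libraries that share a replicate number had deviations from the group mean with a correlation of 0.011 in the whole table. In peaks whose mean value reached 5 it was 0.029. This cannot settle the pairing, since the labels do not say which libraries came from the same cells. A fit with the replicate block called 11 of the 41 peaks and 4 of the 11 promoter peaks lower. In the whole table this fit called 8468 peaks lower and 3912 higher, beside 5856 and 2262 in the main fit. With 2 libraries per group, peaks of few reads cannot show small differences.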
